A study of Drosophila melanogaster with 8 samples.

Results

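The heat-shock proteins and chaperones examined here were 34 of the 17868 genes counted in sorted Drosophila neurons. They were taken by name: every gene whose symbol starts with Hsp or Hsc70, together with Hsf, stv, Droj2, DnaJ-1, DnaJ-H, mrj, P58IPK, Gp93, Cdc37 and l(2)efl. The rule also lists Hop, a name that no row of the data carried. The clk856-GAL4 driver, which is active in most clock neurons, labeled the cells of clk856 > EGFP flies, and the pan-neuronal nSyb-GAL4 driver labeled neurons of all kinds in nSyb > EGFP flies. All 8 libraries came from male flies about 2 weeks old that were raised at 25 °C in 12 h of light and 12 h of dark and received no treatment. No animal was heat-shocked. Brains were dissected at ZT2, 2 h after lights on, or at ZT14, 2 h after lights off, and EGFP-positive cells were collected by fluorescence-activated sorting. Between dissection and sorting the brains were held on ice, digested with collagenase and dispase at room temperature and triturated. The effect of this handling on the chaperone transcripts was not tested. Each genotype had 2 libraries (R1 and R2) at each time. The clk856 libraries were made from fewer cells and from more brains than the nSyb libraries. Cell type, the number of brains handled and the size of the sort can therefore not be told apart. The deposited names of the libraries also follow another scheme in each genotype, and if these mark sequencing runs, run and genotype cannot be told apart either. From each dissociation 2 sets of cells were collected, and no source used here says whether R1 and R2 are such a pair. The p values therefore measure only the spread between these libraries.

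Chaperones bind unfolded or partly folded proteins and keep them from aggregating until they fold, are moved or are degraded. Hsp70 proteins do this in cycles of ATP hydrolysis that J proteins start and nucleotide exchange factors reset. Hsp90 proteins act late on signaling proteins, the chaperonins enclose their clients in a barrel, and small Hsps hold unfolded proteins without using ATP. In Drosophila the members fall into 2 classes by regulation. The constitutive class comprises 12 genes that are transcribed in unstressed cells, namely Hsc70-1 to Hsc70-5, Hsc70Cb, Hsp83, Gp93 and Hsp60A to Hsp60D. The heat-inducible class comprises 13 genes, which are the 6 Hsp70 copies, Hsp68 and the small Hsp genes Hsp22, Hsp23, Hsp26, Hsp27, Hsp67Ba and Hsp67Bc, and which are activated by the heat shock factor Hsf when unfolded proteins build up. The other 9 genes are co-chaperones, Hsf itself and l(2)efl. The division is by common usage and is not sharp, since stv, DnaJ-1 and Hsp83 also respond to heat.

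Reads counted on genes numbered between 4823985 and 8439193 in the clk856 libraries and between 7970236 and 8449829 in the nSyb libraries. Levels are given as RPM, the reads on a gene scaled by the authors to the total of the library, and the limit of detection was set at 3 reads, which was 0.161 to 0.299 RPM depending on the library. That limit covers counting error only. Genotypes and times were compared on the read counts with edgeR's quasi-likelihood test, in which p values were adjusted over all genes that passed a filter on low counts, and a gene was called at an adjusted p under 0.05. The sorted cells carried neuronal transcripts in every library, with a summed level of 5 neuron markers between 2437 and 2573 RPM in clk856 and between 2313 and 2632 RPM in nSyb, none of them at 0. The 6 clock neuron markers summed to between 303 and 1348 RPM in clk856 and to between 11.2 and 54.1 RPM in nSyb.

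The chaperones together were a small share of the transcripts and a larger one in the clock neurons. All 34 genes took between 0.915% and 1.11% of the gene reads in the clk856 libraries and between 0.727% and 0.857% in the nSyb libraries, with no overlap between the genotypes. Per kilobase of exon, the highest levels in the nSyb neurons were those of constitutive genes, with Hsc70-4 at a mean of 297 RPM per kilobase and Hsp83 at 286 RPM per kilobase. In the clk856 neurons the small Hsps led instead. Hsp23 was at 493 RPM per kilobase and Hsp26 at 408 RPM per kilobase, above Hsp83 at 279 and Hsc70-4 at 263 RPM per kilobase. This order depends on the division by exon length. In mean RPM, Hsp83 at 825 and Hsc70-4 at 716 were above Hsp23 at 436 and Hsp26 at 412 in the clk856 neurons.

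Several members had few or no reads. Hsp22, a mitochondrial small Hsp, and Hsc70-2 had 0 reads in all 8 libraries, which puts each below the floor everywhere. The count of Hsp22 cannot be read as absence of the transcript, because all of its exon bases are shared on the same strand with another annotated gene, CG4456, which also had 0 reads in every library. Hsp60B had reads in 1 library, Hsp60C in 2 and Hsp60D in 4, at up to 0.28, 2.97 and 0.87 RPM. Hsc70-1 reached 2.64 RPM in 1 clk856 library. These 6 genes did not pass the filter for the comparison of genotypes, which left 28 members. Among those, Hsp70Bbb and l(2)efl passed through the clk856 libraries, since fewer than 2 nSyb libraries held 10 reads of either.

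Between genotypes, 11 of the 28 members tested were higher in the clk856 neurons (39.3%), against 10.3% of all 7784 genes tested, and 1 was lower (3.57%, against 6.69% of all genes). In either direction 12 were called (42.9%, against 17.0% of all genes). The level was higher in every clk856 library than in any nSyb library for 14 members, as it was for 13.5% of all genes, and lower for 3, as it was for 12.3% of all genes. By class, 5 of 12 heat-inducible genes tested were called higher and 1 lower, with a median log2 fold change (clk856 over nSyb) of 1.73. The 12 include the 6 Hsp70 copies, which are nearly identical and are not separate observations. Hsp70Ba was among those called higher, and Hsp70Bb was the one called lower. Hsp70Ab, Hsp70Ba, Hsp70Bbb and Hsp70Bc were among the 14 members higher in every clk856 library. Of the 7 constitutive genes tested 4 were called, all higher, with a median of 0.86, and of the 9 remaining genes 2 were called, both higher, with a median of 0.10. The median over all genes tested was -0.01. When Hsp70Bbb and l(2)efl, which passed through the clk856 libraries, were left out, an alternative chosen after seeing the data, the calls were the same, 13 members were higher in every clk856 library, and the heat-inducible median was 1.51. With scaling to library size alone, 11 members were called higher and 3 lower (DnaJ-H, Hsp60A and Hsp70Bb), while over all genes 675 were called higher and 787 lower, against 805 and 521.

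**Figure D1:**
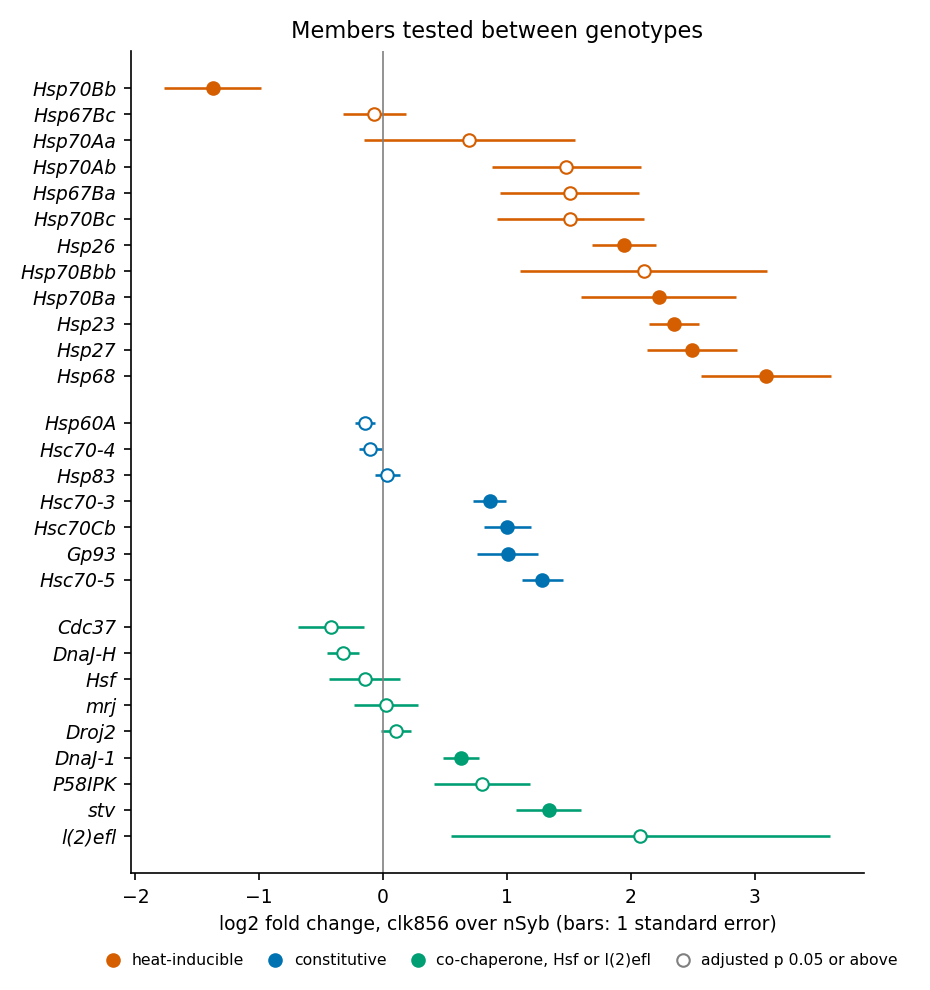
Log2 fold change of clk856 over nSyb neurons for the 28 members tested, with bars of 1 standard error, filled where the adjusted p was under 0.05. Heat-inducible genes range from -1.38 (Hsp70Bb) to 3.09 (Hsp68), and constitutive genes from -0.14 (Hsp60A) to 1.29 (Hsc70-5).

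Hsp68 had the largest change among the members called. It encodes a heat-inducible cytosolic relative of Hsp70 (chromosome 3R, 24055080 to 24057310 of dm6). In the clk856 neurons it was at 354 and 416 RPM at ZT2 and at 165 and 194 RPM at ZT14. In the nSyb neurons it was at 14.9 and 14.6 RPM at ZT2 and at 57.5 and 52.7 RPM at ZT14. All clk856 libraries were above all nSyb libraries, and within each condition the replicates lay close together. The means were 282 ± 122 RPM (SD, n = 4) and 35.0 ± 23.4 RPM (SD, n = 4), a ratio of 8.07, and most of the SD lay between the times. The log2 fold change was 3.09 (SE, the standard error, 0.52, adjusted p = 0.00312, edgeR). The ratio of the genotype means was 26.0 at ZT2 and 3.25 at ZT14.

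Hsp23, Hsp26 and Hsp27 encode small Hsps and lie in the 67B cluster on chromosome 3L, between 9371511 and 9385694 of dm6. All 3 were higher in the clock neurons. Hsp23 was at 465, 487, 340.0 and 451 RPM in the clk856 libraries (ZT2 R1, ZT2 R2, ZT14 R1 and ZT14 R2) and at 88.6, 58.1, 97.5 and 116 RPM in the nSyb libraries in the same order. Hsp26 was at 522, 424, 315 and 388 RPM in clk856 and at 85.2, 79.6, 108 and 179.6 RPM in nSyb. Hsp27, whose protein is found in the nucleus, was at 137, 116, 82.8 and 115 RPM in clk856 and at 21.9, 9.17, 17.1 and 36.7 RPM in nSyb. For all 3 genes the lowest clk856 library was above the highest nSyb library. The log2 fold changes were 2.35 for Hsp23 (SE 0.20, adjusted p = 6.7e-05), 1.94 for Hsp26 (SE 0.26, adjusted p = 8.4e-04) and 2.49 for Hsp27 (SE 0.36, adjusted p = 0.00142).

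Of the other genes of the cluster, Hsp67Bc and Hsp67Ba did not pass the test, and Hsp22 and CG4456 had no reads to test. Hsp67Bc, a small Hsp that acts with stv in protein quality control, ranged from 26.3 to 60.4 RPM in clk856 and from 41.5 to 56.4 RPM in nSyb, so that the genotypes overlapped, at a log2 fold change of -0.07 (adjusted p = 0.888). Hsp67Ba was between 10.7 and 12.7 RPM in clk856 and between 2.2 and 7.15 RPM in nSyb. The Hsp67Ba libraries did not overlap, but the log2 fold change of 1.51 had an adjusted p of 0.0977. Of the exon bases of Hsp67Ba, 75.9% overlap an antisense gene, and whether reads were counted by strand is not given in the sources used here.

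**Figure D2:**
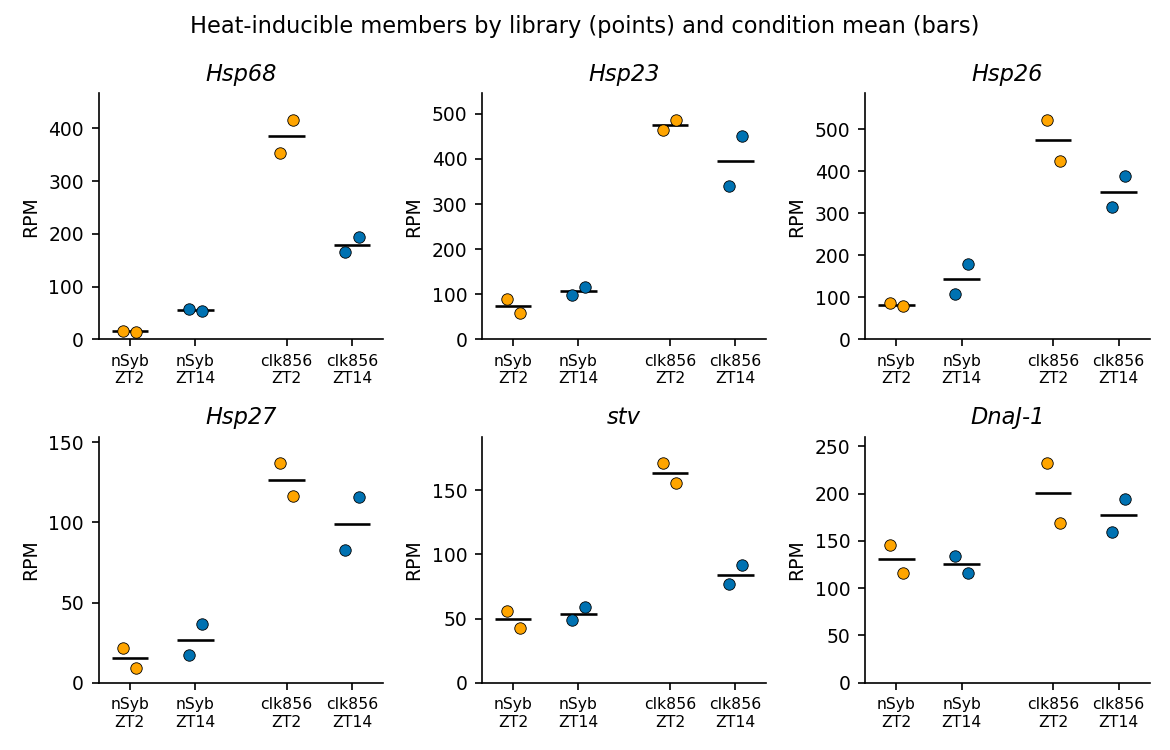
RPM of Hsp68, Hsp23, Hsp26, Hsp27, stv and DnaJ-1 in each library (points, 2 per condition) with the condition mean (bar), in nSyb and clk856 neurons at ZT2 and ZT14. Every clk856 point lies above every nSyb point in all 6 panels, and Hsp68 runs from 14.6 RPM in nSyb at ZT2 to 416 RPM in clk856 at ZT2.

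The 6 Hsp70 genes, which encode the major heat-inducible Hsp70, summed to a lower level than Hsp68 in every clk856 library, but to a higher one in both nSyb ZT2 libraries. Hsp70Aa and Hsp70Ab lie at 87A, and the others at 87C, on chromosome 3R. Their reads summed to 40.9, 45.7, 29.8 and 34.4 RPM in the clk856 libraries (ZT2 R1, ZT2 R2, ZT14 R1 and ZT14 R2) and to 27.5, 23.1, 35.1 and 30.5 RPM in the nSyb libraries. These sums overlapped between genotypes and were higher in clk856 than in nSyb at ZT2 only. The copies are nearly identical in sequence, and how reads that match several copies were treated is not given in the sources used here. The deposited tally of reads without a unique alignment was 0 in every library, which does not tell whether such reads were dropped or assigned. Their separate counts are therefore uncertain.

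The reads were split among the copies in another way in each genotype. Hsp70Bb took between 60.8% and 71.1% of the reads on the 6 copies in the nSyb libraries and between 15.1% and 21.8% in the clk856 libraries. Its level was 6.17, 8.37, 6.49 and 6.54 RPM in clk856 and 19.5, 14.3, 22.8 and 18.5 RPM in nSyb, and it was the only member called lower in the clk856 neurons, with a log2 fold change of -1.38 (SE 0.39, adjusted p = 0.0366). Hsp70Ba was at 10.8, 11.9, 6.35 and 8.68 RPM in clk856 and at 1.93, 1.77, 2.28 and 2.47 RPM in nSyb, with a log2 fold change of 2.22 (SE 0.63, adjusted p = 0.0353). Hsp70Ab, Hsp70Bbb and Hsp70Bc were also higher in every clk856 library, with log2 fold changes of 1.48, 2.10 and 1.51, but were not called (adjusted p of 0.129, 0.194 and 0.116), and Hsp70Aa overlapped (log2 fold change 0.70, adjusted p = 0.657).

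The calls of both Hsp70 copies were lost when single libraries were left out. For Hsp70Ba the adjusted p was 0.0503 without nSyb ZT2 R2, 0.112 without clk856 ZT2 R1, 0.110 without clk856 ZT2 R2, 0.0704 without clk856 ZT14 R1 and 0.0985 without clk856 ZT14 R2. For Hsp70Bb it was 0.0736 without nSyb ZT14 R1, 0.0580 without nSyb ZT14 R2, 0.0984 without clk856 ZT2 R1, 0.0619 without clk856 ZT2 R2, 0.0985 without clk856 ZT14 R1 and 0.104 without clk856 ZT14 R2.

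**Figure D3:**
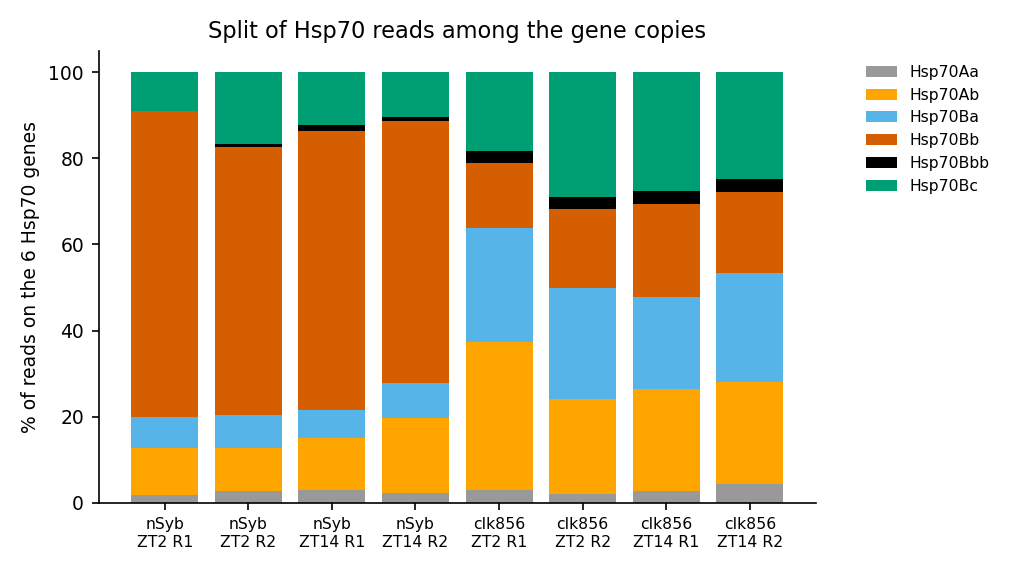
Share of the reads on the 6 Hsp70 genes that was counted on each copy (stacked bars, %), in each of the 8 libraries. Hsp70Bb holds 60.8% to 71.1% in the nSyb libraries and 15.1% to 21.8% in the clk856 libraries.

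Among the co-chaperones, stv and DnaJ-1 were higher in the clock neurons. Stv (starvin), the Drosophila BAG3 protein, links Hsp70 and small Hsps to the removal of damaged proteins. The stv mRNA was at 171, 156, 76.7 and 91.9 RPM in clk856 (ZT2 R1, ZT2 R2, ZT14 R1 and ZT14 R2) and at 56.2, 42.6, 48.7 and 59.1 RPM in nSyb. All clk856 libraries were above all nSyb libraries, and the log2 fold change was 1.34 (SE 0.26, adjusted p = 0.00674). DnaJ-1, the J protein that starts the cycle of cytosolic Hsp70, was at 232, 169, 159.5 and 195 RPM in clk856 and at 145, 116, 134 and 116 RPM in nSyb. It did not overlap either, with a log2 fold change of 0.63 (SE 0.15, adjusted p = 0.0142).

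The remaining co-chaperones were not called. The J proteins Droj2 and mrj had log2 fold changes of 0.10 and 0.03 between genotypes (adjusted p of 0.646 and 0.962). P58IPK, a J protein of the endoplasmic reticulum, had 0.80 (adjusted p = 0.205). DnaJ-H was lower in every clk856 library, at 95.9 to 116 RPM against 123 to 159 RPM in nSyb, but its log2 fold change of -0.32 had an adjusted p of 0.116. Cdc37, which brings kinases to Hsp90, overlapped between genotypes (log2 fold change -0.42, adjusted p = 0.341). Of the exon bases, 22.8% of DnaJ-H and 23.2% of Cdc37 overlap other genes, and the strand setting of the counts is not given. The small Hsp l(2)efl stayed at or under 3.42 RPM and was not called (log2 fold change 2.08, adjusted p = 0.418).

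Hsf, the transcription factor through which heat activates the inducible genes, was not called. It was at 80.4, 87.7, 60.9 and 55.6 RPM in clk856 and at 44.5, 101, 70.3 and 115 RPM in nSyb, with a log2 fold change of -0.15 (SE 0.29, adjusted p = 0.791). The activity of Hsf is regulated on the protein and is not measured by its mRNA. Another transcript that heat induces, the long noncoding RNA Hsromega, was lower in the clk856 neurons, at 1691 to 2291 RPM against 2618 to 2987 RPM in nSyb (log2 fold change -0.41, adjusted p = 0.0120). Hsromega, which was named after its values were seen, was thus opposite in direction to Hsp68 and the small Hsps that were called.

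The constitutive chaperones were called in part. The most abundant ones of the cytosol were not. Hsc70-4, the main cognate Hsp70 of the cytosol, which also uncoats clathrin at synapses, was at 757, 764, 674 and 667 RPM in clk856 (ZT2 R1, ZT2 R2, ZT14 R1 and ZT14 R2) and at 719.5, 746, 834 and 929 RPM in nSyb. Its log2 fold change was -0.10 (SE 0.09, adjusted p = 0.531). Hsp83, the cytosolic Hsp90, was at 824, 819, 797 and 859 RPM in clk856 and at 765, 753, 1032 and 829.8 RPM in nSyb, with a log2 fold change of 0.03 (SE 0.10, adjusted p = 0.872). The genotypes overlapped for both genes.

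Both constitutive genes of the endoplasmic reticulum, and Hsc70Cb of the cytosol, were higher in the clock neurons. Hsc70-3 encodes BiP, the Hsp70 of this compartment. It was at 273, 271, 305 and 322 RPM in clk856 and at 182, 144, 141 and 210.0 RPM in nSyb, with no overlap and a log2 fold change of 0.86 (SE 0.13, adjusted p = 0.00177). Gp93, the Hsp90 of the same compartment, was at 121, 61.4, 90.3 and 95.1 RPM in clk856 and at 69.0, 42.2, 39.2 and 42.3 RPM in nSyb. The Gp93 libraries overlapped, and the log2 fold change was 1.01 (SE 0.25, adjusted p = 0.0198), with an adjusted p of 0.0595 without clk856 ZT2 R1 and 0.0511 without clk856 ZT14 R2. Hsc70Cb, an Hsp110 that exchanges the nucleotide of Hsp70 and works with it on aggregates, was at 77.8, 68.2, 67.3 and 67.9 RPM in clk856 and at 41.2, 36.0, 43.2 and 26.5 RPM in nSyb. It did not overlap (log2 fold change 1.0, SE 0.19, adjusted p = 0.00589).

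Mitochondrial chaperones were also measured. Hsc70-5, the mitochondrial Hsp70 that pulls in and folds imported proteins, was at 163, 179, 159 and 158 RPM in clk856 and at 55.8, 83.3, 59.5 and 84.5 RPM in nSyb. It had the largest change of the constitutive genes, with means of 165 ± 9.47 RPM (SD, n = 4) and 70.8 ± 15.2 RPM (SD, n = 4) and a log2 fold change of 1.29 (SE 0.16, adjusted p = 6.4e-04). Hsp60A, the mitochondrial chaperonin, was lower in every clk856 library, at 459, 484, 431 and 448 RPM against 578, 501, 488 and 547 RPM in nSyb, but was not called (log2 fold change -0.14, SE 0.08, adjusted p = 0.265).

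**Figure D4:**
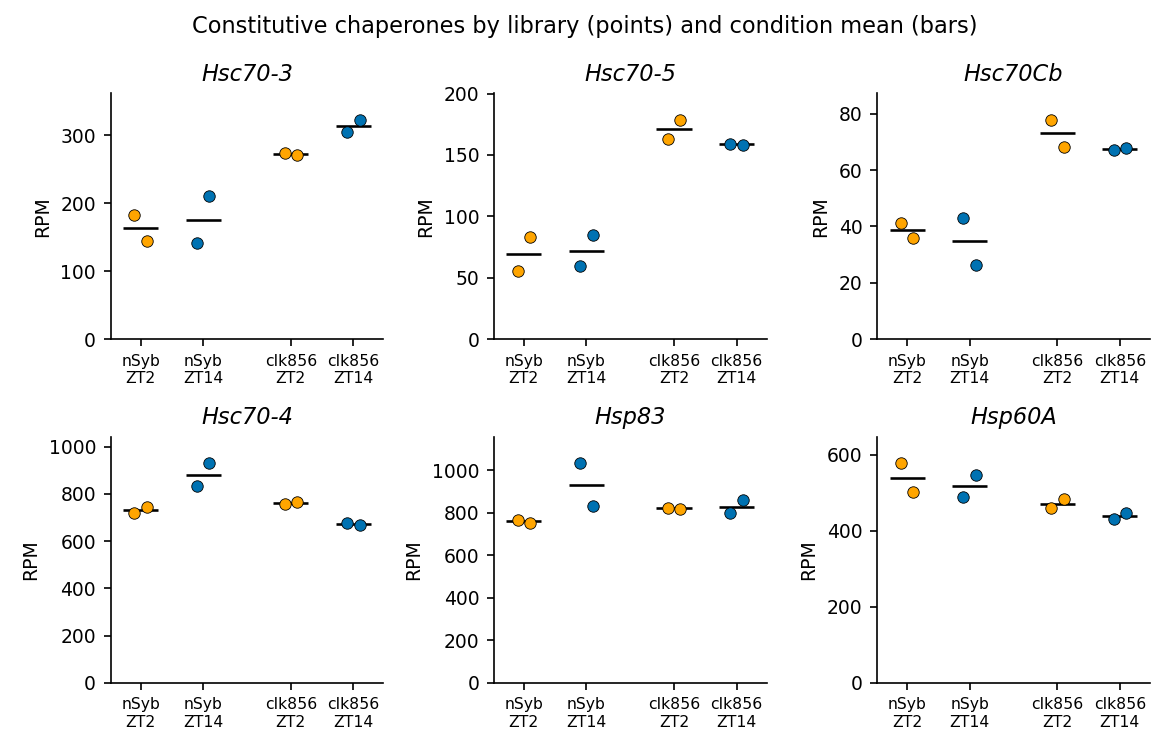
RPM of 6 constitutive chaperones in each library (points, 2 per condition) with the condition mean (bar), in nSyb and clk856 neurons at ZT2 and ZT14. The clk856 points of Hsc70-3, Hsc70-5 and Hsc70Cb lie above all nSyb points, whereas Hsc70-4 and Hsp83 overlap and Hsp60A lies slightly lower in clk856 (431 to 484 RPM).

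The calls between genotypes were tested over 16 other settings. Hsp68 had an adjusted p under 0.05 in all 16, Hsp23, Hsp26 and Hsc70-5 in 15, and Hsp27, stv, DnaJ-1, Hsc70-3 and Hsc70Cb in 14. Gp93 was under 0.05 in 13, Hsp70Ba in 6 and Hsp70Bb in 5. The first 9 genes stayed under 0.05 when any single library was left out. With the ZT2 libraries alone only Hsp68 and Hsp26 were called, and with the ZT14 libraries alone Hsp68, Hsp23, Hsc70-5 and Gp93, each in a comparison of 2 libraries against 2. Over all genes 8 were called with the ZT2 libraries alone and 340 with the ZT14 libraries alone.

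Time of day was compared within each genotype. In the clk856 neurons 0 of 30 members tested were called between ZT14 and ZT2, where 0.0244% of 8188 genes were called. An unadjusted p under 0.05 was found for 4 of them (Hsp68, stv, Hsp26 and Hsf), against 6.77% of all genes. DESeq2 called Hsp68 and stv, as did edgeR without the filter on low counts. Both ZT14 libraries were below both ZT2 libraries for 16 members, as for 17.5% of all genes, and above them for 5, as for 21% of all genes. Hsp60D, among the 5, passed the filter through the ZT14 libraries, with 10 and 13 reads there against 3 and 0 at ZT2. The 16 included 7 of the 12 heat-inducible genes tested, and 10 of these 12 had a log2 fold change (ZT14 over ZT2) below 0, with a median of -0.33. The nearly identical Hsp70 copies among the 12 are not separate observations. The median was -0.11 for 9 constitutive genes, Hsp60D among them, and 0.02 over all genes.

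In the nSyb neurons 0 of 26 members tested were called between ZT14 and ZT2, where 0% of 7671 genes were called. An unadjusted p under 0.05 was found for 2 (Hsp68 and Hsp26), against 3.95% of all genes, and DESeq2 called Hsp68. Both ZT14 libraries were above both ZT2 libraries for 8 members, as for 17.0% of all genes, and below them for 3, as for 15.4% of all genes. Of the 11 heat-inducible genes tested, 9 had a log2 fold change above 0, and the median was 0.53, against 0.03 for 7 constitutive genes and -0.01 over all genes. Here too the Hsp70 copies among the 11 are not separate observations.

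The time values of Hsp68 were opposite in sign in the 2 genotypes. Its mean in the clk856 neurons was 385 ± 44.0 RPM at ZT2 and 179 ± 20.9 RPM at ZT14 (SD, n = 2 each), a log2 fold change of -1.11 (adjusted p = 0.241). In the nSyb neurons the mean was 14.8 ± 0.20 RPM at ZT2 and 55.1 ± 3.39 RPM at ZT14 (SD, n = 2 each), a log2 fold change of 1.88 (adjusted p = 0.9999). The replicates did not overlap between the times in either genotype, though neither difference was called alone. The difference between the time effects was tested as an interaction of genotype and time. Hsp68 was the only member called of 30 tested and the only one of 8926 genes (0.0112%), with a difference of -3.01 on the log2 scale (SE 0.23, adjusted p = 0.0119).

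The interaction of Hsp68 depended on single libraries of the clock neurons. The adjusted p was 0.0616 without clk856 ZT2 R1, 0.124 without clk856 ZT2 R2 and 0.0843 without clk856 ZT14 R1, and 10 of 13 other settings kept it under 0.05, with a range from 1.7e-33 to 0.124. The difference itself stayed between -3.12 and -2.88.

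Other inducible genes had interaction values of the same sign that were not called. The interaction was below 0 for 11 of 12 heat-inducible genes tested, with a median of -0.89, against 0.03 for 9 constitutive genes, 0.01 for the 9 remaining genes and 0.01 over all genes. Hsp70Bbb, Hsc70-1, Hsp60D and l(2)efl entered these groups through the clk856 libraries, since they did not pass the filter in nSyb alone. Hsc70-1 and Hsp60D had the highest values of the 9 constitutive genes, 5.48 and 5.18, and the constitutive median includes them. The 12 include the Hsp70 copies, which are nearly identical and are not separate observations, with SE between 0.86 and 2.48. An unadjusted p under 0.05 was found for 5 members, against 6.51% of all genes. Besides Hsp68 these were Hsp26 (-1.24, adjusted p = 0.674), stv (-1.09, adjusted p = 0.674), Hsp23 (-0.82, adjusted p = 0.754) and Hsc70-4 (-0.45, adjusted p = 0.746). Hsp27 had -1.16 (adjusted p = 0.832). The interaction and the comparisons within each genotype use the same libraries and are not separate evidence.

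These interaction values came from the following levels. The level of stv in the clk856 neurons was 163 ± 10.7 RPM at ZT2 and 84.3 ± 10.8 RPM at ZT14 (SD, n = 2 each), whereas in the nSyb neurons it was 49.4 ± 9.57 RPM (SD, n = 2) and 53.9 ± 7.32 RPM (SD, n = 2). Hsp26 went from a mean of 473 to 351 RPM in clk856 and from 82.4 to 144 RPM in nSyb. Hsc70-4 was at 760.2 and 671 RPM in clk856 and at 733 and 881.5 RPM in nSyb, with no overlap between times in either genotype. The means of Hsp83 were 821 and 828 RPM in clk856 and 759 and 931 RPM in nSyb. Among the constitutive genes higher in the clock neurons, the log2 fold changes of ZT14 over ZT2 in clk856 and nSyb were -0.11 and 0.03 for Hsc70-5, 0.20 and 0.10 for Hsc70-3, -0.12 and -0.16 for Hsc70Cb and 0.01 and -0.46 for Gp93.

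**Figure D5:**
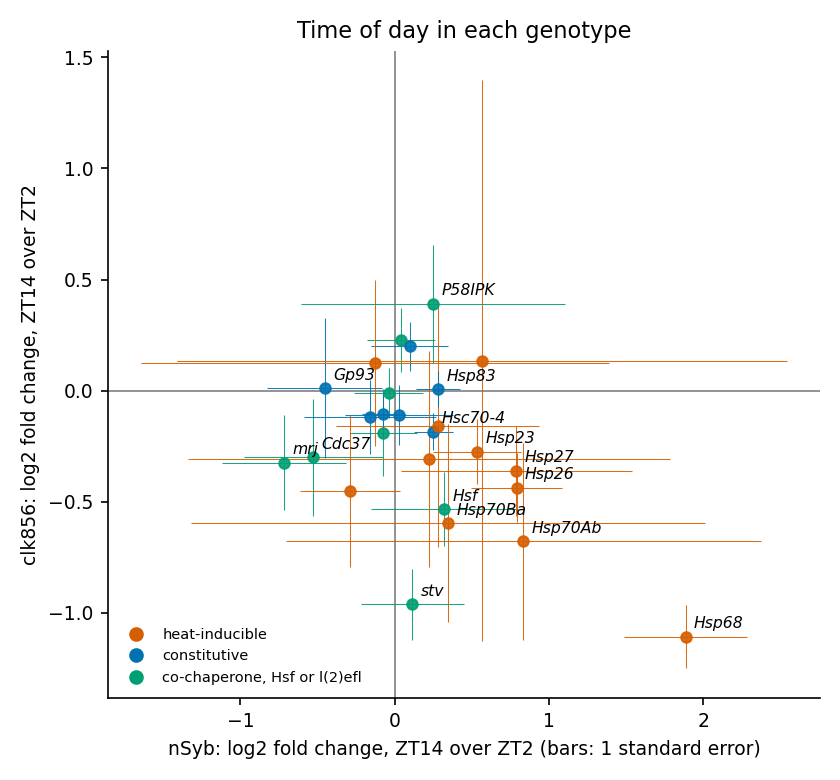
Log2 fold change of ZT14 over ZT2 in nSyb neurons (horizontal) and clk856 neurons (vertical) for the 26 members tested in both, with bars of 1 standard error. Hsp68 stands at 1.88 and -1.11, most other heat-inducible genes lie right of 0 and below 0, and the constitutive genes lie between -0.46 (Gp93) and 0.28 (Hsp83) on the horizontal axis.

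Other genes of protein folding and stress were examined from lists compiled by function, to be read against the 10.3% of all genes called higher and the 6.69% called lower. Of the 8 subunits of the cytosolic chaperonin CCT, 2 were called, both higher in the clk856 neurons, with log2 fold changes of 1.35 for CCT2 and 1.2 for CCT3. Of 14 further J proteins and cofactors of Hsp70 and Hsp90, 1 was higher (Csp, the J protein of synaptic vesicles, 0.85) and 1 lower (STUB1, a ubiquitin ligase that acts on chaperone clients, -0.89). Stip1, which bridges Hsp70 and Hsp90 and has Hop among its synonyms, had a log2 fold change of 0.15 (adjusted p = 0.783) and ranged from 43.1 to 67.1 RPM in clk856 and from 24.7 to 63.0 RPM in nSyb. Of 9 genes of the endoplasmic reticulum stress response, 4 were higher and 1 lower, from 1.14 for Pdi, a disulfide isomerase, to -0.57 for crc, the Drosophila ATF4. Of 8 other stress genes tested 1 was higher (cnc, the Drosophila Nrf2, 1.6) and 2 lower, Hsromega and the humoral stress gene TotA. TotA was at 1.35 ± 1.30 RPM (SD, n = 4) in clk856 and 13.1 ± 5.73 RPM (SD, n = 4) in nSyb (log2 fold change -3.21, adjusted p = 0.0357). Of 4 activity genes tested 1 was higher (sr, 1.43).

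Markers of other cells were mixed. The 7 glia markers summed to between 76.2 and 123 RPM in clk856 and between 136 and 323 RPM in nSyb, and 1 of 6 tested was called (Eaat1, lower in clk856). The glia markers repo and moody were at 0 in 3 nSyb libraries, and at 6.47 and 0.44 RPM in nSyb ZT14 R2. In the clk856 libraries repo was at 0.14 to 5.68 RPM and moody at 0.45 to 2.29 RPM. The lowest of these, repo in clk856 ZT14 R1, was under the limit of detection of 0.207 RPM. The 6 photoreceptor markers summed to between 145 and 235 RPM and between 261 and 308 RPM, nearly all of it norpA (145 to 231 RPM and 254 to 306 RPM). Of the defining photoreceptor genes, ninaE, ninaC, trp and Arr2 were at 0 in every nSyb library, and ninaE, ninaC and trp did not exceed 3.31 RPM in clk856, where Arr2 was at 0. The photoreceptor gene inaD went the other way, at 1.53 to 6.8 RPM in nSyb and at 0 in every clk856 library. Both photoreceptor markers tested were called lower in clk856. For norpA the log2 fold change was -0.54 (adjusted p = 0.0377, edgeR). For inaD it was -9.33 (adjusted p = 0.00668, edgeR), but inaD passed the filter on low counts through the nSyb libraries alone. With inaD at 0 in clk856, the size of this fold change is not reliable. The 6 fat body and hemocyte markers summed to between 0 and 21.8 RPM and between 16.2 and 50.1 RPM, which overlapped, with Lsp2 and Fbp1 at 0 in every library. Their part in the genotype differences of the chaperones was not tested. In bulk libraries of this kind, a change in the cells that express a gene and a change in its RNA per cell cannot be told apart.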

How the data were processed

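RNA from 8 libraries of sorted neurons was analysed. The raw read counts per gene were deposited by the authors after alignment to dm6 with STAR and removal of PCR duplicates with Picard. The counting program, the annotation release and the strand setting are not given in the sources used here. The RPM values were deposited by the authors after division of the counts by a library total, 1.84 to 1.88 times the reads listed. The deposited RPKM values were not used, because their gene length includes introns. Ambiguous reads (5.67% to 6.10%) and reads outside genes (5.53% to 8.94%) were left out.

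Counts were tested with edgeR 4.0.16 in R 4.3.3 (TMM normalization, filterByExpr with a minimum count of 10, quasi-likelihood test, Benjamini-Hochberg adjustment over all genes tested). Genotypes were compared over all 8 libraries without a covariate, and times within each genotype. The interaction was fitted to the 4 conditions. The standard error is the absolute log2 fold change over the square root of the F statistic. Alternatives were DESeq2 1.42.0, RLE and library-size scaling, no filter, a replicate block, time as a covariate, single times, 4 groups, each library left out, and, added after seeing the data, 2 members left out. Every gene named by the rule is accounted for. Of the other lists, the called genes with the highest and lowest log2 fold changes are named, and Hsromega and Stip1 were named after their values were seen. Members and lists were chosen with earlier results of these data known. Gene positions are those of Ensembl BDGP6.54 (dm6). In tests on simulated data with changes of 2 on the log2 scale, 93 of 161 changed genes were called between genotypes with 3 false calls, 113 of 176 with 13 between times in clk856, 62 of 172 with 5 in nSyb, and 23 of 175 with 0 for the interaction. Libraries of one condition differed by 19.1 to 93.3 times counting error (chi-square over degrees of freedom).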

Additional observations from a re-analysis of the deposited data

Results flagged for a closer look

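The time effect of Hsp68 differed between the genotypes, with an interaction of -3.01 on the log2 scale (adjusted p = 0.0119, edgeR). Both clk856 libraries were lower at ZT14 than at ZT2, and both nSyb libraries were higher.

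Sets of 4 libraries of a genotype were examined for single members against the 95% limit of Dixon's test. In 7 of 61 sets, 1 library stood apart from the other 3. No chance rate is set beside this count, because each set mixes both times. Hsc70-1 in nSyb and Hsp60B in clk856 were at 0 in the other 3 libraries, which passes the limit whatever the level. In nSyb ZT2 R1, Gp93 was at 69.0 RPM and Hsc70-1 at 1.42 RPM. In clk856 ZT2 R1, Hsc70Cb was at 77.8 RPM and Hsp60C at 2.97 RPM. In clk856 ZT2 R2, Hsp70Bb was high at 8.37 RPM and Hsp67Ba low at 10.7 RPM. In clk856 ZT14 R1, Hsp60B was at 0.28 RPM, from 4 reads.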

How the results depend on the processing

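The comparisons of times rest on 2 libraries against 2, and members at a few RPM rest on few reads. Where a setting changed a value below, the cause was not tested. Scaling to library size alone shifted the median over all genes between genotypes from -0.01 to -0.14 (log2), and turned Droj2 to -0.029, Hsp83 to -0.10 and mrj to -0.10. No other member tested between genotypes changed sign under it.

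Between genotypes 12 members were called, 2 with the ZT2 libraries alone and 4 with the ZT14 libraries alone, and between 9 and 12 with 1 library left out. Over all genes 1326 were called, 2123 by DESeq2, 8 at ZT2 alone and 340 at ZT14 alone. Between times in clk856, DESeq2 and the fit without the filter each called 2 members. Over all genes 2 were called, 85 by DESeq2, 81 without the filter and 0 in the fit of 4 groups. In nSyb, DESeq2 and the fit of 4 groups each called 1 member. Over all genes DESeq2 called 224 and the fit of 4 groups 1, and between 0 and 1 were called with 1 library left out. For the interaction DESeq2 called 4 members and the fit without the filter 2, with 0 to 1 when 1 library was left out. Over all genes these were 193, 98 and 0 to 85.

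With the ZT2 libraries alone, Hsc70-4 was at 0.13, Hsf at 0.27, Hsp67Bc at 0.013 and mrj at -0.12 on the log2 scale between genotypes, and with the ZT14 libraries alone Hsp83 was at -0.092. With 1 library left out, the log2 fold change between genotypes ranged from -0.36 to 0.039 for Hsf, -0.22 to 0.13 for Hsp67Bc, -0.014 to 0.15 for Hsp83 and -0.13 to 0.24 for mrj. Between times it ranged from -0.40 to 0.055 for DnaJ-1 in clk856, and in nSyb from -0.036 to 0.29 for stv, -0.17 to 1.08 for Hsf and -0.19 to 0.065 for DnaJ-1. None of these values was called.

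With the replicate number as a block, 10 members were called between genotypes, without Hsp70Ba (adjusted p = 0.0561) and Hsp70Bb (adjusted p = 0.0588), and over all genes 4 were called between times in clk856. Libraries with the same number did not deviate together (r between -0.0233 and 0.0311 over 7752 genes). This shows no shared shift by number, but cannot tell whether libraries of the same number were prepared together.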
